A study of Mus musculus with 6 samples.

Results

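The DOK proteins (downstream of tyrosine kinases) are a family of adaptors encoded in the mouse by 7 genes, Dok1 to Dok7. All 7 were found by their GENCODE M21 symbols among the 52550 gene identifiers of the count tables. The family was chosen from results of the comparison described here. Its values between the genotypes are therefore a description, and the p-values say where a gene stands among all genes and support no claim about the family.

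Polyadenylated RNA of 1 cortical hemisphere per library was sequenced from mouse pups at postnatal day 2 (P2), on the C57BL6/J strain. The knockout group (n = 3) had the genotype Slc7a5fl/fl with Emx1Cre+, and the control group (n = 3), called wild type in the series' design text, had Slc7a5fl/fl with Emx1Cre-. Both groups thus carried floxed alleles and only the knockouts carried Cre. The titles letter the libraries A, B and C within each genotype. Emx1-Cre recombines in the dorsal forebrain progenitors that make cortical excitatory neurons and astrocytes. Microglia, vessels, blood and most interneurons of the sample keep the gene, and an effect of Cre itself and one of the deletion cannot be told apart.

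A DOK protein has a pleckstrin homology domain that binds membrane lipids, a phosphotyrosine-binding (PTB) domain that docks on activated receptors, and a tail whose tyrosines become phosphorylated. Dok1, Dok2 and Dok3 work mostly in blood and immune cells, where Dok1 and Dok2 bring the Ras inhibitor RasGAP to the receptor and restrain Ras and ERK signalling. Dok4, Dok5 and Dok6 are the neural branch, which binds the GDNF receptor Ret and, for some members, neurotrophin receptors. Dok7 is best known from skeletal muscle, where it activates the kinase MuSK at the neuromuscular junction.

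Dok4, the member on which most of the results turn, shares part of its exons with a gene on the other strand, Polr2c, which encodes a subunit of RNA polymerase II. Dok4 (ENSMUSG00000040631) lies at chr8:94863828-94876330 on the minus strand of GRCm38, and the overlap takes up 953 of its 3054 bases of merged exons, in 4 stretches. The first stretch, of 415 bases, is the 3′ end of Dok4. The second falls in a coding exon of Dok4 at chr8:94867392-94867499, shown here 5′ to 3′ on the strand of Dok4 because an annotated coding exon of Polr2c reads through it on the opposite strand. Capitals mark the 102 bases inside that Polr2c exon. The aligned coding exon of Dok5, the relative of the neural branch with the most reads after Dok4, follows from chr2:170800850-170800957 on the plus strand, with capitals at the 33 of its 108 bases that differ from Dok4. Both were read from the GENCODE M21 transcripts.
Dok4: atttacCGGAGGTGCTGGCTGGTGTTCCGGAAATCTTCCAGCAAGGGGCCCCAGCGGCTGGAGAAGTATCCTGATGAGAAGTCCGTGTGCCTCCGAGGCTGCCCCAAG
Dok5: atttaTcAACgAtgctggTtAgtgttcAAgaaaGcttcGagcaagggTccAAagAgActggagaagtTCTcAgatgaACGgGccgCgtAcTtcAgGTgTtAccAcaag

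The exons show that the DOK genes are related but not near-identical copies. Over the whole coding sequence, Dok4, Dok5 and Dok6 were identical at 65.8 to 68.7% of the aligned bases in their 3 pairs, and the 18 other pairs of the family at 54.7 to 60.7%. The longest stretch that any pair shared without a mismatch was 17 bases, between Dok5 and Dok6. Dok1, Dok2 and Dok3 have 5 coding exons each, and Dok4 to Dok7 have 8.

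Libraries held 8249436 to 10372582 reads counted to genes. Slc7a5, the targeted gene, which encodes the amino acid carrier LAT1, was at 15.6, 9.37 and 11.4 CPM in the knockouts lettered A to C, against 20.2, 40.7 and 26.1 CPM in the controls lettered A to C. CPM are counts-per-million values, with libraries scaled by TMM. Every knockout lay below every control. By edgeR's quasi-likelihood test, with p-values adjusted by Benjamini-Hochberg across the tested genes, this difference stayed short of the threshold (log2 change -1.25 ± 0.28, adjusted p = 0.400). Of 14913 genes tested, 5 passed at an adjusted p under 0.05, with 3 higher and 2 lower in the knockout, and 7 passed, 5 higher and 2 lower, when libraries were scaled by medians of ratios. With the letter as a block, 126 passed, 49 higher and 77 lower.

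All 7 DOK genes passed the filter on low counts. None was among the calls of the fit by genotype alone, where 0.0335% of all genes were called. DESeq2, which gave an adjusted p to 3 members, Dok4, Dok5 and Dok7, called 1 of them, Dok4, beside 0.23% of the 11729 genes to which it gave one. At an unadjusted p under 0.05 in edgeR there were 2 members, Dok4 and Dok5, beside 7% of all genes. In the fit with the letter as a block, Dok4 was the 1 member called, beside 0.845% of all genes. The values were lower in the knockout for 5 members and higher for Dok3 and Dok6, with a median log2 change of -0.31 for the family, against 0.0011 for all genes tested, of which 49.8% had lower values. In 2 members, Dok4 and Dok7, every knockout lay below every control, which was so for 6.28% of all genes. Since this contrast chose the family, nothing is read from these shares.

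Dok4, a docking protein of the neural branch, had 159, 154.5 and 152 CPM in knockouts A, B and C. In controls A, B and C it had 233, 223 and 214 CPM. The knockouts lay close to each other and all below the lowest control. Group means were 155 ± 3.80 CPM in knockouts and 223 ± 9.31 CPM in controls (SD, n = 3 each), so that knockouts held 69.5% of the control level. The fitted log2 change was -0.53 ± 0.098 (SE). By p, Dok4 stood at place 11 of 14913, with an adjusted p of 0.0841 in edgeR by genotype alone and 9.996e-04 with the letter as a block. Between libraries of the same letter the log2 differences of knockout minus control were -0.55, -0.53 and -0.50 for A, B and C. Its coefficient of biological variation within genotype was 0.103, beside 0.119 for genes of the same abundance. This was not particular to Dok4. All other members but Dok3 also lay below the value for their abundance, with Dok7 at 0.118 beside 0.138.

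**Figure D1:**
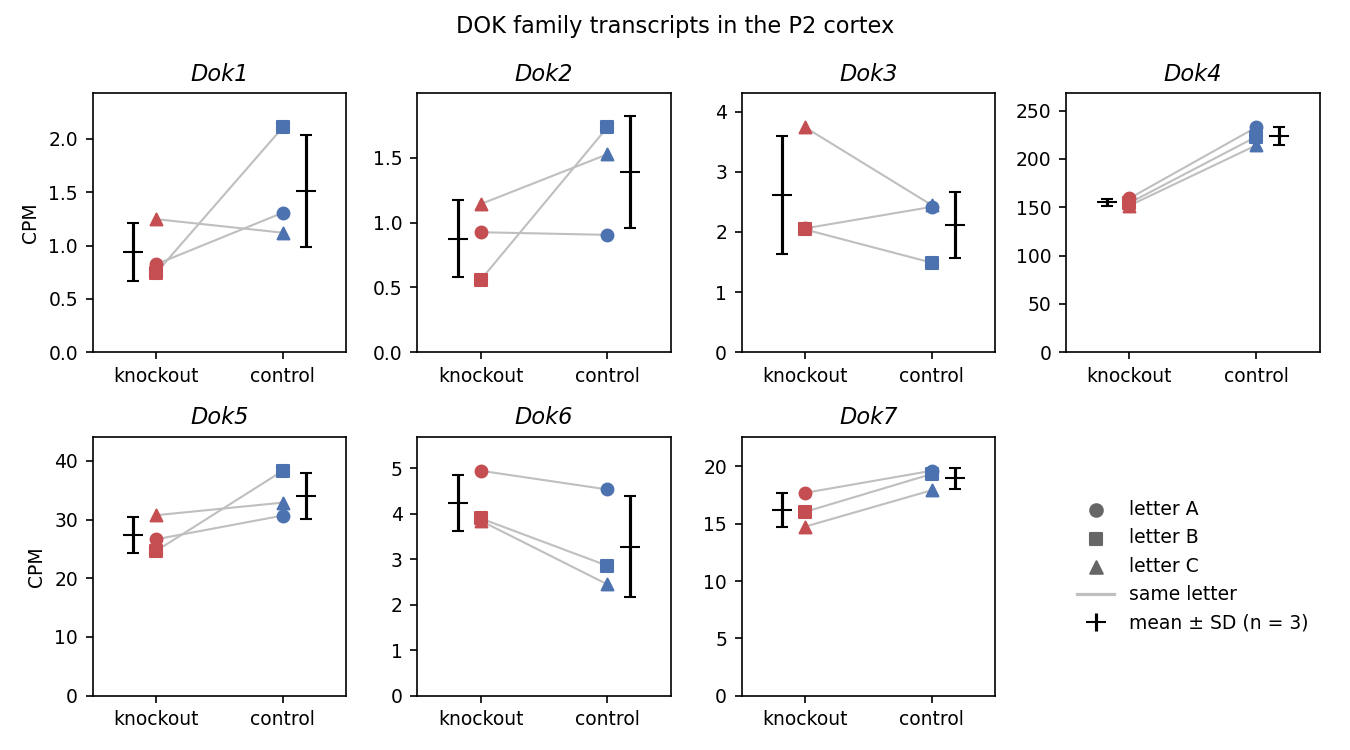
CPM (counts-per-million values, linear axes from 0) of the 7 DOK genes in each library, knockout left and control right. Marker shapes give the letter, grey lines join libraries of 1 letter, and black bars are the mean ± SD of 3 libraries. In Dok4 the knockouts sit at 152 to 159 CPM and the controls at 214 to 233 CPM. The points of Dok1, Dok2, Dok3 and Dok6 overlap between genotypes, and those of Dok5 overlap narrowly.

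Nearly all Dok4 reads lay where the gene overlaps Polr2c. Reads on the Dok4 strand over Polr2c exons numbered 10540, which is 96.8% of the 10887 reads of Dok4 in the 6 libraries, although the overlap is 31.2% of the exon length. The share was 95.6, 97.2 and 97.0% in knockouts A, B and C, against 97.2, 97.2 and 96.5% in controls A, B and C. The shares of the genotypes overlapped. In these libraries reads lay near 3′ ends in general. Genes with at least 200 reads that share 5 to 50% of their exon length with 1 gene of the opposite strand were compared by the end they share. As for Dok4, reads on the gene's strand over any exon of the other gene were set against the gene's own reads. Some of them may lie outside the gene's own exons. Among 317 that share the 3′ end, the overlap covered a median of 15.6% of the exon length, and these reads came to a median of 67.9% of the gene's reads. Among 309 that share the 5′ end, the medians were 10.4% of the length and 0.0876% of the reads.

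The part of Dok4 over Polr2c exons had 152, 150 and 147 CPM in knockouts A, B and C, against 226, 217 and 207 CPM in controls A, B and C, with no overlap of the groups. The part outside those exons was small, with 7.0, 4.36 and 4.57 CPM in knockouts A, B and C, against 6.44, 6.33 and 7.44 CPM in controls A, B and C. Here the groups overlapped, since knockout A exceeded controls A and B. Its means were 5.31 ± 1.47 CPM in knockouts and 6.73 ± 0.610 CPM in controls (SD, n = 3 each). Where reads are counted without regard to strand, only reads outside the overlap remain assigned to Dok4, 362 in all 6 libraries. Counted so, the log2 change was -0.36 ± 0.23 and did not pass (edgeR adjusted p = 0.807).

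Polr2c itself, read from the opposite strand and counted here over the whole gene, overlapped between genotypes. Its level was 75.6, 68.5 and 92.7 CPM in knockouts A, B and C, against 75.8, 74.9 and 84.5 CPM in controls A, B and C. The log2 change was 0.0087 ± 0.12 (edgeR adjusted p = 0.996), and knockout values lay on both sides of the controls. Of its 4553 reads, 64.1% lay over Dok4 exons, at 49.6 ± 7.92 CPM in knockouts and 51.3 ± 5.87 CPM in controls (SD, n = 3 each). Dok4 reads made up 67.8, 69.3 and 62.1% of the stranded reads of the pair in knockouts A, B and C, against 75.4, 74.9 and 71.7% in controls A, B and C, without overlap.

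**Figure D2:**
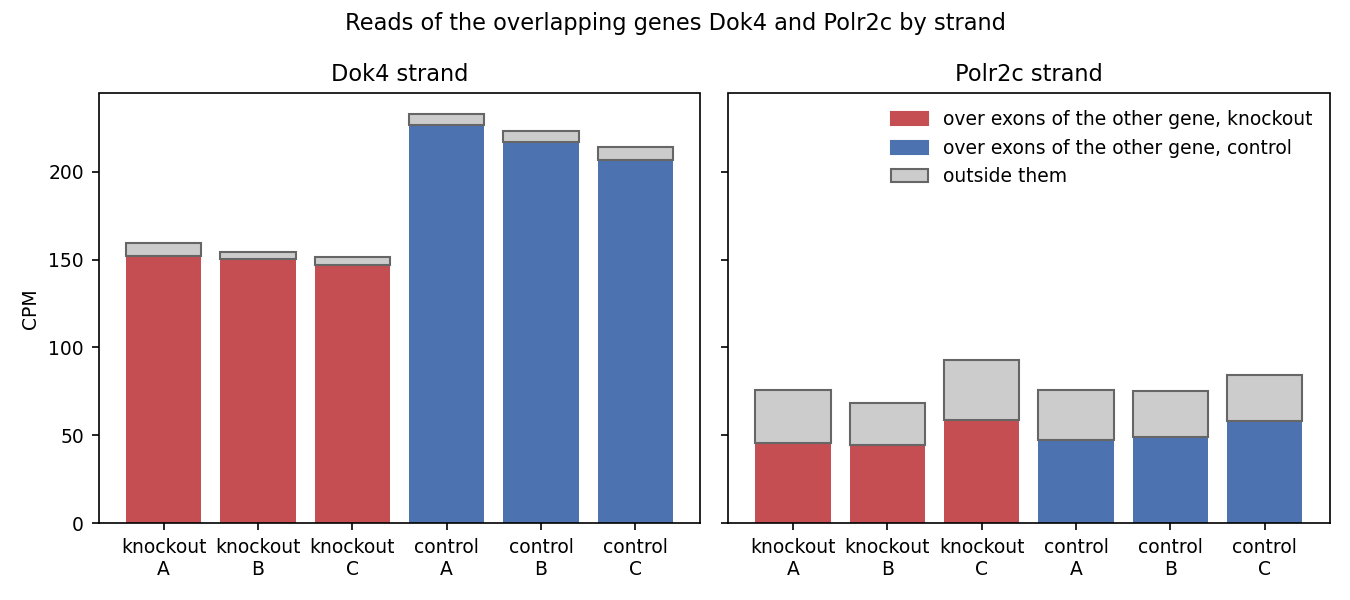
CPM per library on the Dok4 strand (left) and on the Polr2c strand (right), with knockouts in red before controls in blue. Coloured bars are reads over exons of the other gene and grey bars reads outside them. On the Dok4 strand the coloured part is 147 to 152 CPM in knockouts and 207 to 226 CPM in controls, and the Polr2c bars overlap between genotypes.

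Dok5 (ENSMUSG00000027560, chr2:170731807-170879769, plus strand), which binds Ret, had 26.7, 24.7 and 30.8 CPM in knockouts A, B and C, against 30.7, 38.3 and 32.9 CPM in controls A, B and C. The highest knockout, C, lay just above the lowest control, A, so the groups overlapped narrowly. Means were 27.4 ± 3.10 CPM in knockouts and 34.0 ± 3.93 CPM in controls (SD, n = 3 each). The log2 change was -0.31 ± 0.13 (edgeR adjusted p = 0.683 by genotype, 0.276 with the block). The pair of letter B differed most, by -0.64 on the log2 scale, and the pairs A and C by -0.20 and -0.097. Without control B the fitted value was smaller, at -0.22.

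Dok6 (ENSMUSG00000073514), the last of the Ret-binding branch, was sparsely counted, with 127 reads in the knockouts and 92 in the controls. Its level was 4.94, 3.90 and 3.84 CPM in knockouts A, B and C, against 4.53, 2.85 and 2.44 CPM in controls A, B and C. Control A lay among the knockouts. The log2 change was 0.36 ± 0.29 (edgeR adjusted p = 0.850), which became 0.67 without control A and 0.18 without control C. Both libraries of letter A had the highest value of their genotype. Those libraries were also low in markers of meningeal fibroblasts, at 14.6 CPM in knockout A and 11.4 CPM in control A, while the other libraries had 90.1 and 96.1 CPM in knockouts and 45.6 and 99.0 CPM in controls. The part of that tissue in the Dok6 values was not tested.

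Dok7 (ENSMUSG00000044716, chr5:35056766-35087839, plus strand), known as the activator of MuSK, was present at 17.7, 16.0 and 14.8 CPM in knockouts A, B and C, against 19.6, 19.4 and 17.9 CPM in controls A, B and C. The groups did not overlap, although knockout A and control C were close. The log2 change was small, at -0.23 ± 0.14 (edgeR adjusted p = 0.796 by genotype, 0.541 with the block), with -0.15, -0.27 and -0.28 for the pairs A, B and C. Its partner Musk had 8 reads in all 6 libraries together, a mean of 0.130 CPM, and was not tested, while Agrn, which encodes the nerve-derived ligand of the Musk complex, averaged 735 CPM. Among 8 markers of skeletal muscle, 5 averaged under 1 CPM. Their summed level was 13.8 to 16.5 CPM in knockouts and 16.4 to 18.5 CPM in controls, most of it from Acta1, and its part in the Dok7 values was not tested.

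The immune members were at the edge of detection. Dok1 (ENSMUSG00000068335, chr6:83030934-83033471, minus strand), which recruits RasGAP, had 28 reads in the knockouts (95% exact Poisson interval 18.6 to 40.5) and 41 in the controls (29.4 to 55.6). Its level was 0.823, 0.742 and 1.25 CPM in knockouts A, B and C, against 1.31, 2.11 and 1.12 CPM in controls A, B and C. Knockout C lay above control C, so the groups overlapped. Dok2 (ENSMUSG00000022102, chr14:70766036-70778495, plus strand), its close partner in blood cells, had 26 reads in the knockouts (17.0 to 38.1) and 38 in the controls (26.9 to 52.2). It stood at 0.926, 0.557 and 1.14 CPM in knockouts A, B and C, against 0.906, 1.74 and 1.53 CPM in controls A, B and C. These intervals cover counting error only, and within each gene they overlap.

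Fitted log2 changes of the pair were -0.67 ± 0.43 for Dok1 and -0.66 ± 0.44 for Dok2 (edgeR adjusted p = 0.808 and 0.825). The largest fitted sizes of the family thus came with its widest errors. In both genes control B was the highest library and knockout B the lowest. Without control B the values were -0.37 for Dok1 and -0.48 for Dok2, and without knockout B they were -0.52 for Dok1 and -0.41 for Dok2.

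Dok3 (ENSMUSG00000035711, chr13:55523231-55529296, minus strand), which restrains signalling in B cells and macrophages, had 78 reads in the knockouts and 60 in the controls. Its level was 2.06, 2.04 and 3.74 CPM in knockouts A, B and C, against 2.42, 1.49 and 2.44 CPM in controls A, B and C. The log2 change was 0.28 ± 0.35 (edgeR adjusted p = 0.919). Knockout C alone lay above the controls, and without it the value was -0.062. Without control B it was 0.10.

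Microglial markers, 12 of 13 of which were tested, had higher values in 10 and a summed level of 198 to 239 CPM in knockouts and 169 to 209 CPM in controls. Among 10 markers of other leukocytes and platelets, Cd3e, Cd3g, Cd79a and Ly6g had no read in any library. The list summed to 11.6 to 18.2 CPM in knockouts and 8.76 to 9.43 CPM in controls. The neutrophil gene S100a8 had 3.29, 3.71 and 7.27 CPM in knockouts A, B and C, against 1.41, 2.36 and 2.24 CPM in controls A, B and C, and was called in the fit with the block (adjusted p = 0.0336). The part of these cells in the values of Dok1, Dok2 and Dok3 was not tested.

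**Figure D3:**
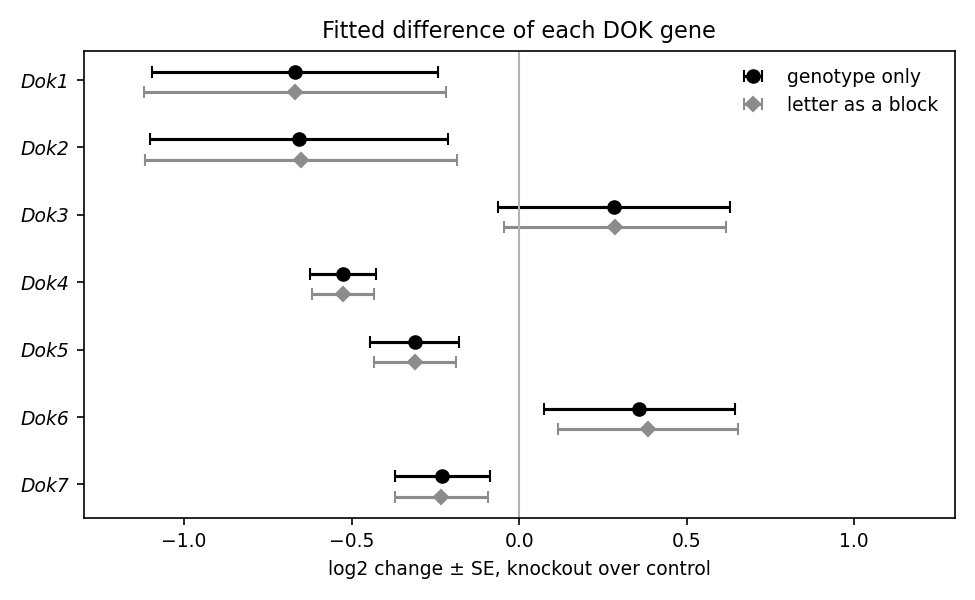
Fitted log2 change of knockout over control for each DOK gene, with SE bars. Black circles are the fit by genotype and grey diamonds the fit with the letter as a block. Dok4 has the narrowest bar, -0.53 ± 0.098, while Dok1 and Dok2 lie furthest left with SE of 0.43 and 0.44.

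Per kilobase of merged exons, the family ran over more than 2 orders of size. Dok4 was highest, with 50.8 ± 1.24 RPKM, which is CPM per kilobase, in knockouts and 73.1 ± 3.05 RPKM in controls (SD, n = 3 each). Dok5 followed at 15.5 ± 1.76 RPKM in knockouts and 19.2 ± 2.22 RPKM in controls, and then Dok7 at 3.78 ± 0.346 and 4.44 ± 0.214 RPKM. These levels did not overlap between the genes in any library, nor did those of Dok7 and Dok3. Dok3, at 0.605 to 1.52 RPKM over the 6 libraries, overlapped Dok1, at 0.375 to 1.07 RPKM. Dok1 overlapped Dok2, at 0.192 to 0.598 RPKM, and Dok2 overlapped Dok6, at 0.177 to 0.358 RPKM.

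The place of Dok6 in this order depends on the scale, since its merged exons span 13804 bases, against 1768 to 4275 bases in the other members, and reads lay near 3′ ends. In CPM, the mean of Dok6 was above those of Dok1, Dok2 and Dok3 in both genotypes. Dok4 made up 71.1, 72.3 and 67.7% of the summed RPKM of the family in knockouts A, B and C, against 75.9, 71.8 and 73.7% in controls A, B and C. These shares overlapped between genotypes. Without Dok4 the summed level of the other members was 21.2, 19.4 and 23.7 RPKM in knockouts A, B and C, against 24.2, 28.7 and 25.1 RPKM in controls A, B and C.

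**Figure D4:**
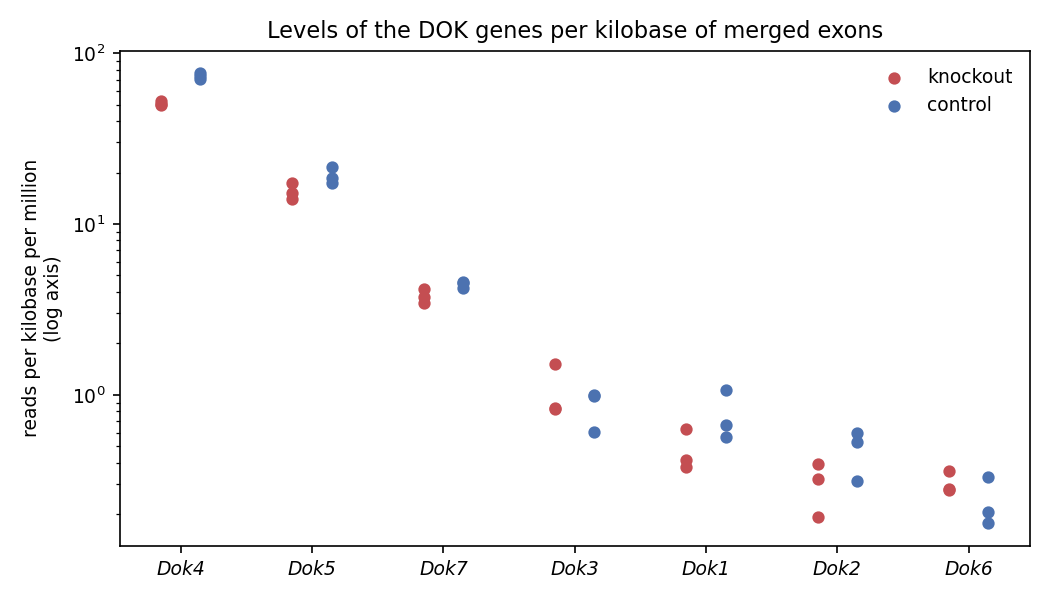
RPKM of each DOK gene in each library on a log axis, with the genes ordered by their mean over the 6 libraries, knockout points left of control points. Dok4, Dok5 and Dok7 stand clear of each other and of the rest, and the 4 lowest genes overlap their neighbours.

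The genes of the pathway around the DOK proteins showed no call. Of 69 genes in 6 lists, 60 were tested, 33 with higher and 27 with lower values, and the median log2 change was 0.023. No gene passed by edgeR with or without the block, nor did any of the 47 that DESeq2 gave an adjusted p. Of all genes, 0.0335% passed by genotype, 0.845% with the block and 0.23% by DESeq2. With so few calls anywhere, their absence among 60 genes says little about the pathway. At an unadjusted p under 0.05 there were 0 of the 60 by genotype, 2 with the block and 0 by DESeq2. Over all genes these shares were 7% by genotype, 11.9% with the block and 5.16% by DESeq2. In 2 of the 60, Shc2 and Etv4, every knockout lay below every control, beside 6.28% of all genes. In 2 others, Nrtn and Lyn, every knockout lay above every control, beside 5.89% of all genes.

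Among receptors upstream, 10 of 11 were tested, with 8 higher values and a median of 0.15. Ntrk2, which encodes the BDNF receptor TrkB, had -0.18 ± 0.11 (edgeR adjusted p = 0.801), and Pdgfrb, of pericytes, 0.29 ± 0.19 (adjusted p = 0.807). Ret, the receptor shared by the neural DOK members, averaged 5.60 CPM with a change of 0.19 ± 0.26. Ligands and coreceptors had 7 higher and 4 lower values among 11 tested of 17, with a median of 0.049. Nrtn, the Ret ligand neurturin, had 0.63 ± 0.37 (adjusted p = 0.787) and Bdnf 0.13 ± 0.20 (adjusted p = 0.936).

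Kinases in the cytoplasm that phosphorylate DOK proteins had lower values in 7 of 9 tested of 10, with a median of -0.058. The Src-family members Lyn and Yes1 went the other way, with 0.40 ± 0.22 and 0.34 ± 0.22 (edgeR adjusted p = 0.766 and 0.808). Effectors that dock on DOK tails were higher in 5 of 7 tested of 8, with a median of 0.081. The adaptor Grb2 had -0.12 ± 0.10, and Inpp5d, the SHIP1 phosphatase of blood cells, 0.37 ± 0.33. Rasa1, which encodes the RasGAP itself, was at 0.025 ± 0.10 with a mean of 131 CPM.

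The other PTB and docking adaptors had 5 higher and 6 lower values among 11, with a median of -0.0084. Shc2 had 25.9, 24.95 and 25.4 CPM in knockouts A, B and C, against 28.9, 28.2 and 30.6 CPM in controls A, B and C, a change of -0.20 ± 0.12 (edgeR adjusted p = 0.793), and Gab1 had 0.23 ± 0.16. Feedback regulators and effectors of ERK signalling divided evenly, 6 higher and 6 lower among 12, with a median of -0.020. The ERK phosphatase Dusp6 had -0.18 ± 0.11 and the transcription factor Etv4 -0.21 ± 0.13 (edgeR adjusted p = 0.787 and 0.795).

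**Figure D5:**
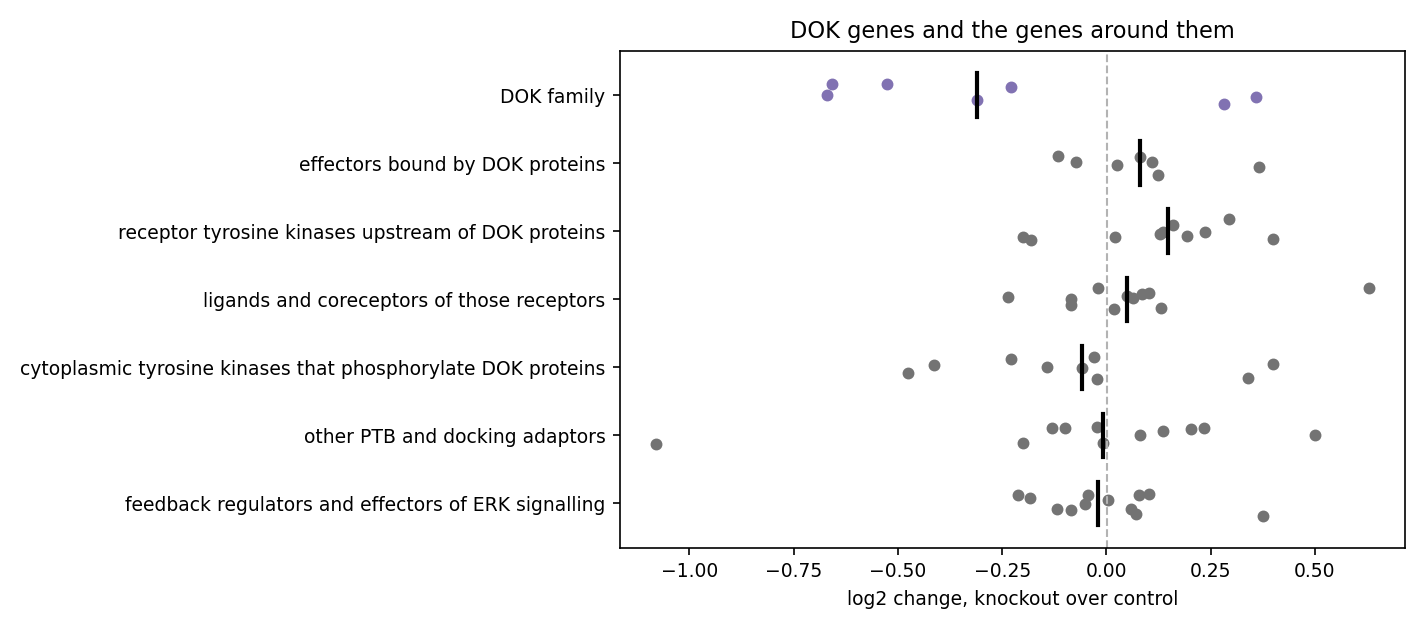
Log2 change of knockout over control for the tested genes of the DOK family (violet) and of 6 lists of genes around it (grey), 1 point per gene with vertical scatter for legibility. Black bars are medians, from -0.31 in the family to 0.15 in the receptors, and the dashed line is the median of all genes tested, 0.0011.

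The genes whose values over the 6 libraries lay nearest to those of Dok4 were Crhr1, Syndig1 and Tbc1d5, among 9171 genes with a mean of at least 10 CPM. The measure was the root mean square difference of log2 CPM after centring each gene, which was 0.064, 0.076 and 0.079 for the 3 genes, against a median of 0.288 over the candidates. Crhr1, a receptor for corticotropin-releasing hormone, had 11.6, 11.1 and 10.7 CPM in knockouts A, B and C, against 17.1, 14.6 and 14.3 CPM in controls A, B and C. Syndig1, a protein of excitatory synapses, averaged 15.3 ± 1.03 CPM in knockouts and 20.5 ± 1.11 CPM in controls (SD, n = 3 each). Tbc1d5, a regulator of Rab GTPases, averaged 18.1 ± 0.699 CPM in knockouts and 28.3 ± 1.28 CPM in controls (SD, n = 3 each), and was called with the block (edgeR adjusted p = 0.00537). In all 3, as in Dok4, every knockout lay below every control, beside 6.28% of all genes. The choice by likeness to Dok4 favours this, so nothing is read from it. For Dok5 the nearest gene was Lzts1, at 0.049 beside a median of 0.237, and for Dok7 it was Gne, the key enzyme of sialic acid synthesis, at 0.033 beside 0.193.

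Markers of the cortex were present. None of the 13 marker lists held a gene called by genotype alone, where 0.0335% of all genes were called. With the block 0.845% of all genes were called, and by genotype 49.8% had lower values. In bulk tissue, fewer cells of a type and less RNA per cell cannot be told apart. Projection neuron markers summed to 2824 to 3187 CPM in knockouts and 2912 to 3255 CPM in controls, with 5 of 8 lower. Within that list, Slc17a7, a glutamate transporter of mature excitatory neurons, was called lower with the block (edgeR adjusted p = 0.0160). Interneuron markers were higher in 8 of 8, at 1318 to 1584 CPM in knockouts and 1185 to 1267 CPM in controls, and Gad2 was called with the block (adjusted p = 0.0191). Progenitor markers were higher in 6 of 6, at 368 to 398 CPM in knockouts and 318 to 361 CPM in controls. Oligodendrocyte lineage markers were lower in 6 of 7, at 241 to 257 CPM in knockouts and 266 to 319 CPM in controls. Their part in the Dok4 values was not tested. The sums of the astrocyte, endothelial, meningeal fibroblast, red cell, striatal and thalamic lists overlapped between genotypes. In that order, 2 of 5, 6 of 8, 4 of 4 tested, 0 of 5, 2 of 5 and 2 of 5 markers were higher in knockouts. The sums for microglia, other leukocytes and skeletal muscle are given above.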

How the data were processed

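Strand-specific polyA libraries (Lexogen SENSE kit, per the labels' protocols) of 6 cortical hemispheres were sequenced. The deposited tables hold unnormalised counts, 1 row per gene and 1 column per strand setting, as STAR writes them. STAR 2.5.4 is listed, with GRCm38 and mm10 as genome builds, per the submitters' processing notes. Which annotation release was counted is not given in the sources used here. The stranded column was used, which held 17.5 to 19.2 times the reads of the opposite one. Summary lines stayed out of library sizes. Reads outside exons were 27.4, 27.9 and 27.8% of mapped reads in knockouts A, B and C. In controls A, B and C they were 26.5, 22.5 and 23.0%, so every knockout lay above every control. The part of this difference in the values between genotypes was not tested. Ambiguous reads were 0.689 to 0.759%, and multi-mapping ones 0, so reads shared by near-identical copies were not counted. GENCODE M21 on GRCm38 gave names, coordinates and exon lengths for 52403 of 52550 identifiers.

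The fit by genotype used edgeR 4.0.16 under R 4.3.3. It kept 14913 genes by filterByExpr, scaled libraries by TMM (factors 0.979 to 1.04) and called genes by the robust quasi-likelihood test at an adjusted p under 0.05 (Benjamini-Hochberg, two-sided). The SE is the size of the log2 change divided by the square root of F. Coefficients of biological variation are square roots of edgeR's tagwise and trended dispersions. RPKM are TMM-scaled counts per kilobase of merged exons. DESeq2 leaves some adjusted p-values empty, and these stayed empty. Profile likeness used log2 CPM with a prior count of 0.5. Fits were tested on simulated data. Alternatives were DESeq2 1.42.0, other scaling, no filter, both strands counted together, no robust option, each library left out, and the letter as a block.

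Libraries of the same letter deviated together from their group means (correlation over genes 0.438, 0.364 and 0.218 for A, B and C, against at most -0.0315 between letters), so the letters were taken to pair them; the labels do not say what a letter marks. Replicates differed by more than sampling noise (chi-square of 7.59 or more for each degree of freedom), and the series' design text calls them biological replicates.

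The members, the 6 pathway lists, the 13 marker lists and the rule for named genes were chosen with earlier results of these data known. The rule took Slc7a5, all members, genes overlapping them, and the nearest protein-coding gene on either side. It also took the 3 nearest profiles to Dok4 and 1 for other members at 10 CPM or more. From the lists it took the 2 smallest p-values of each pathway list, and the 2 most abundant genes of each marker list. The last were used only where named. Ret, Rasa1, Musk, Agrn, Slc17a7 and Gad2, and the leukocyte markers without reads, were named beyond the rule or after their values were seen.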

Additional observations from a re-analysis of the deposited data

How the results depend on the processing

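The number of genes called was 5 with the genotype alone. It was 71 without a filter on low counts (35 higher, 36 lower), 27 by DESeq2, 2 without the robust option and 126 in the paired fit with the replicate block. With 1 library left out it ran from 1 to 9, with 1 without knockout B, 9 without knockout C, and 2 without control A or control B. With the block and both libraries of 1 letter left out, it was 228, 161 and 77 without A, B and C.

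The log2 change of Dok4 kept its sign in all 15 alternatives. It passed the threshold in 6, at -0.53 without the filter (adjusted p = 0.00469), -0.52 by DESeq2 (adjusted p = 3.418e-04), -0.53 with the block (adjusted p = 9.996e-04), and -0.51, -0.52 and -0.54 with the block and without letters A, B and C (adjusted p = 0.00754, 1.074e-04 and 0.0326). With 1 library left out and no block it ran from -0.56 to -0.50 and never passed (adjusted p from 0.152 to 0.407). Dok3 turned to -0.062 without knockout C, and ran from there to 0.44 with 1 library left out. No other member changed its sign or passed in any alternative. The block changed no member's call but that of Dok4. Dok2 failed the count filter with the block and without letter C and has no value there. The cause of these differences was not tested. Dok1, Dok2, Dok3 and Dok6 had 64 to 219 reads over 6 libraries, which limits their precision.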

Other observations

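Genes that overlap the DOK members, and the nearest protein-coding genes on either side, were read for their own values. Loxl3, which starts 701 bases from Dok1 on the opposite strand, had 1.54, 1.39 and 1.56 CPM in knockouts A, B and C, against 2.01, 2.11 and 2.75 CPM in controls A, B and C, with a log2 change of -0.61 ± 0.33 (edgeR adjusted p = 0.764). Xpo7, which overlaps the span of Dok2 on the opposite strand, had -0.11 ± 0.10, and no read of that strand was counted over Dok2 exons. Gfra2, a coreceptor of Ret ligands, is the next protein-coding gene at higher coordinates from Dok2, 111624 bases away, and had 0.064 ± 0.13. The neighbours of Dok3, Pdlim7 and Ddx41, had -0.17 ± 0.13 and 0.0084 ± 0.15. Coq9 and Ccdc102a, on either side of Dok4, had 0.12 ± 0.14 and -0.20 ± 0.16. Cbln4, the next protein-coding gene at higher coordinates from Dok5, 1156463 bases away, had -0.13 ± 0.22. Lrpap1, next to Dok7, had 0.097 ± 0.11. Tmx3, the next protein-coding gene at higher coordinates from Dok6, 740625 bases away, had -0.16 ± 0.12. None of these neighbours passed edgeR's test by genotype or with the block.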
